A study of Danio rerio with 6 samples.

Results

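The genes of the constitutive proteasome were compared in whole kidney marrow (WKM) between wild-type (WT) zebrafish and fish of the double transgenic Tg(drl:hoxa9;hsp70:meis1) (called Tg). Members were taken by name: psma, psmb, psmc, psmd, psmf or psmg followed by a digit, without psmb8, psmb9, psmb10, psmb12 and psmb13, which belong to the immunoproteasome. This rule found 46 of the 32057 rows of the count table and used no measured value. Of these, 19 encode subunits of the 20S core, 19 encode subunits of the 19S cap, and 7 encode assembly factors or the inhibitor psmf1. The remaining row, psmc3ip, matches by its letters only, since it encodes a cofactor of meiotic recombination and no proteasome subunit, and it was kept out of all counts of the cap. Symbols are written in lower case, although the name table gives many of them as their human match.

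WT fish were of the AB strain. Tg fish carried myc-tagged hoxa9 under the draculin (drl) regulatory element. The study describes this element as active in every lineage of the lateral plate mesoderm, blood cells included. Tg fish also carried meis1b together with 2A-GFP under the heat shock promoter hsp70, and came from a cross of 2 stable transgenic lines. Each of the 3 samples per genotype was a pool of the WKM cells of 3 kidneys, from fish that the labels put at 5 months, while the text of the study also gives a younger age. Heat shock of the sequenced fish is not stated in the labels, and single transgenic fish were not analysed here, so effects of hoxa9, meis1 and the insertions cannot be told apart.

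The proteasome is the large protease that degrades proteins tagged with ubiquitin. Its barrel-shaped 20S core is built of outer rings of alpha subunits (psma genes) and inner rings of beta subunits (psmb genes), and the beta subunits encoded by psmb5, psmb6 and psmb7 carry the proteolytic sites. The 19S cap binds ubiquitin chains and removes them, and a ring of ATPases (psmc genes) unfolds the substrate and feeds it into the core, while non-ATPase subunits (psmd genes) form its lid and receptors. Blood-forming cells, like all dividing cells, depend on it to remove cell cycle regulators.

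WT libraries held 53620374 to 64888212 counts and Tg libraries 50767535 to 64055374. Levels are given as CPM, each count scaled by TMM to a common library size. A count of 0 allows a level of up to 0.0457 to 0.0606 CPM in a library, by counting error only. CPM is not corrected for gene length, so levels were compared between samples and not between genes. RNA of a whole pool was measured, so fewer cells of a type and less RNA per cell cannot be told apart.

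Most core and cap genes were slightly higher in Tg than in WT, and none passed the test. Over the 17 core genes tested, the median log2 fold change was 0.17 (12.4% higher), over the 19 cap genes it was 0.23 (17.2% higher), and over all 20123 genes tested it was 0.012. The log2 fold change was above 0 for 16 of 17 core genes, for 19 of 19 cap genes and for 50.9% of all genes tested. Scaling by library size alone lowered these counts to 14 and 18, with psma1, psmb2 and psmc1b then below 0, and lowered the medians to 0.10 and 0.16. By edgeR's quasi-likelihood test 0 of the 17 core genes and 0 of the 19 cap genes passed an FDR of 0.05, against 0.596% of all genes, 0.224% called higher and 0.373% called lower. The FDR ran from 0.149 to 0.894 in the core and from 0.112 to 0.858 in the cap. At an unadjusted p under 0.05, 4 core genes and 7 cap genes were higher and 0 were lower, beside 9.07% of all genes higher and 10.8% lower. DESeq2 called 1 of these 36 genes, psmc3, where it called 3.24% of all genes higher and 6.74% lower.

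The 3 Tg pools all lay above the 3 WT pools for 7 core genes (41.2%) and 12 cap genes (63.2%), and the reverse held for 0 genes. Among all genes tested the pools separated in this way for 14% with Tg higher and 14.1% with Tg lower. These shares depended on the scaling, since with library size alone 3 core genes and 2 cap genes separated, beside 9.94% of all genes. Abundant genes as a whole leaned towards Tg. The 4053 genes with a mean level in the range of the core and cap genes, 37.4 to 239 CPM, had a median log2 fold change of 0.105, and 63.1% of them were above 0. In that set 23.2% of the genes had separated groups with Tg higher, and 16.7% had an unadjusted p under 0.05 with Tg higher.

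**Figure D1:**
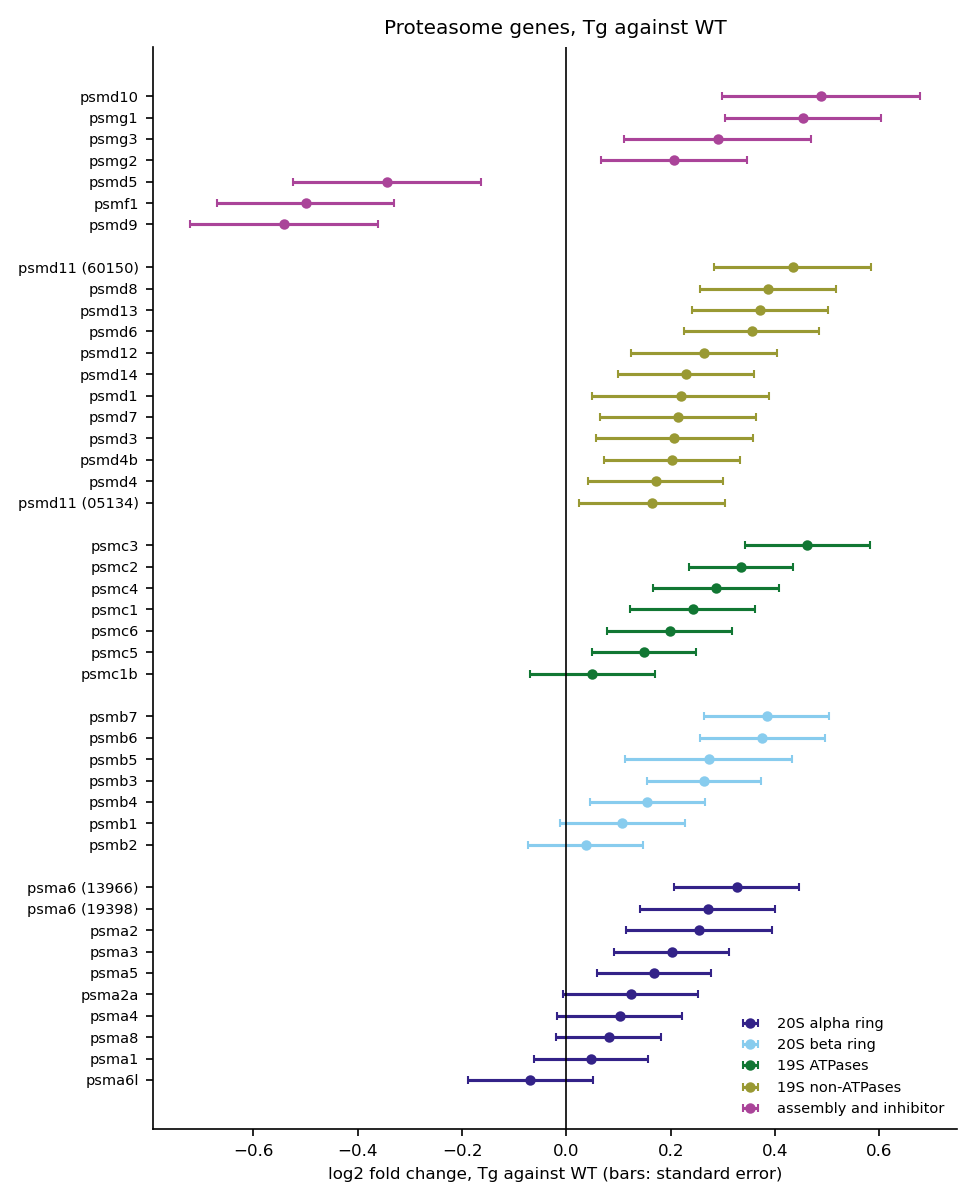
Log2 fold change of Tg against WT for the 43 tested core, cap, assembly and inhibitor genes, with the standard error as bars (3 pools per genotype), coloured by role, and with the last 5 digits of the gene ID where rows share a symbol. Of the 36 core and cap genes, 35 lie above 0, between 0.04 and 0.46, and psma6l lies at −0.07, while the 7 assembly and inhibitor genes spread from −0.54 to 0.49.

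The size of the difference varied from pool to pool. Relative to the WT mean, the median log2 level of the core genes was −0.01, 0.05 and −0.07 in WT pools 1, 2 and 3 and 0.26, 0.12 and 0.20 in Tg pools 1, 2 and 3. For the cap genes these medians were 0.11, 0.04 and −0.14 in WT and 0.36, 0.23 and 0.23 in Tg. With this scaling the 3 Tg medians were above the 3 WT medians in both groups of genes, although Tg pool 2 and WT pool 2 were only 0.07 apart in the core. With library size alone the order did not hold. The core medians of Tg pools 2 and 3 were then −0.01 and 0.06, below the 0.07 of WT pool 2, and the cap medians of both Tg pools were 0.10, below the 0.12 of WT pool 1. The highest value of a gene was in a Tg pool for 33 of the 36 core and cap genes, in Tg pool 1 for 27 of them, and the lowest was in a WT pool for 34, in WT pool 3 for 25. With Tg pool 1 and WT pool 3 both left out, a comparison added after the values were seen, the median log2 fold change was 0.08 in the core and 0.11 in the cap, and 13 of 17 and 16 of 19 genes were above 0. In that comparison of 2 pools against 2, 0 core and 0 cap genes had an unadjusted p under 0.05, beside 6.84% of all genes higher. Summed over the 36 genes, the level was 3332, 3335 and 2988 CPM in WT pools 1 to 3 and 3981, 3558 and 3687 CPM in Tg pools 1 to 3, so that the groups did not overlap. With library size alone they did, since the sums were then 3425, 3459 and 3022 CPM for WT and 4186, 3344 and 3449 CPM for Tg.

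**Figure D2:**
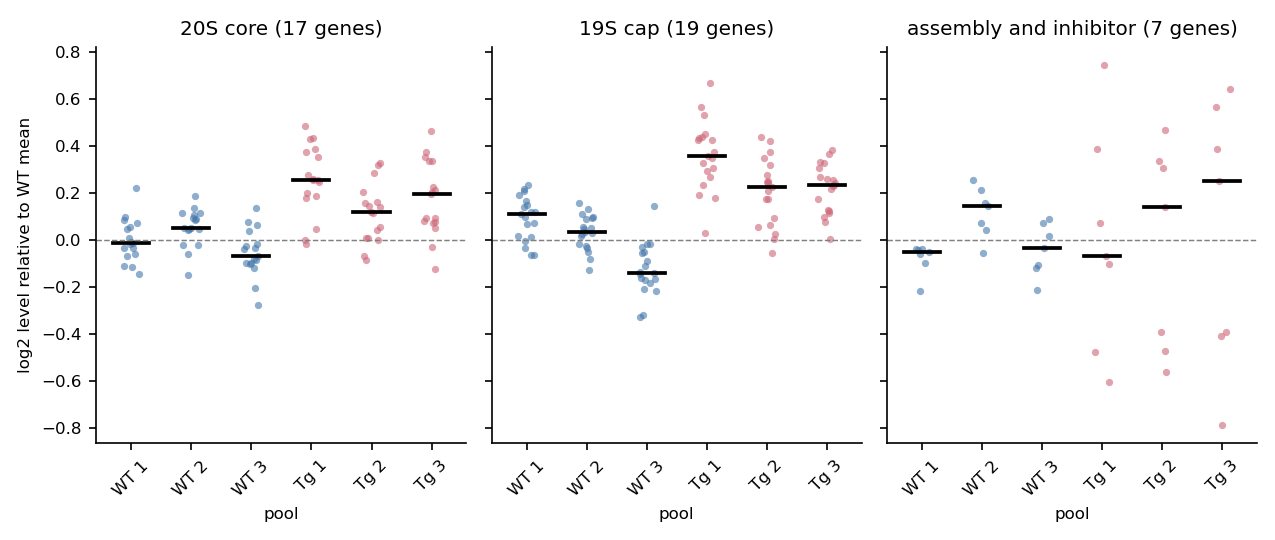
Log2 level of each tested gene relative to its WT mean (vertical axis) in the 3 WT and 3 Tg pools (horizontal axis), for the core (17 genes), the cap (19 genes) and the assembly and inhibitor genes (7 genes). Each point is a gene and the black line is the median, which reaches 0.36 in Tg pool 1 for the cap and drops to −0.14 in WT pool 3.

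Other cell types and states moved between the same pools. Summed levels of 8 stem and progenitor markers were 539 to 609 CPM in WT and 1007 to 1198 CPM in Tg, and 6 of the 8 were separated with Tg higher. Past an FDR of 0.05, 4 of the 8 were higher, beside 0.224% of all genes. Among these 4 is meis1 (log2 fold change 1.36, FDR = 0.0418), a gene that the Tg fish also carry as a transgene. Counts of the transgene and of the native gene cannot be told apart here, so its rise cannot be read as a mark of these cells. Proliferation markers summed to 2555 to 2990 CPM in WT and 2972 to 3195 CPM in Tg, with 8 of 17 rows separated higher and 1 lower, and none past the test. They did not move as a block. The rows separated with Tg higher were pcna, mcm2, mcm3, mcm4, mcm5, mcm6 (ENSDARG00000057683), mcm7 and tyms. The row separated with Tg lower was mki67 (log2 fold change −0.47), and top2a, cdk1, ccnb1, ccna2 and aurkb overlapped, at −0.32 to −0.07. The remaining rows also overlapped but lay above 0. They were the rows of rrm2, at 0.07 and 0.47, and the other row of mcm6 (ENSDARG00000033231), at 1.22 (SE 1.41). Kidney tubule markers were present in every pool besides the blood markers. They summed to 6606, 2672 and 2924 CPM in WT pools 1 to 3 and to 1849, 2246 and 1854 CPM in Tg pools 1 to 3. WT pool 1 thus stood far above the other pools. Of 16 rows tested, 10 were separated with Tg lower. Past an FDR of 0.05, 1 of the 16 was lower, beside 0.373% of all genes. Macrophage markers summed to 3766 to 5739 CPM in WT and 3199 to 4168 CPM in Tg, with 5 of 17 rows tested separated with Tg lower. Neutrophil markers summed to 12225 to 21743 CPM in WT and 17052 to 29077 CPM for Tg, with a median log2 fold change of 0.52, 6 of 8 rows above 0 and mmp9 and ncf1 separated with Tg higher. B cell markers overlapped in their sums, at 486 to 921 CPM in WT and 567 to 807 CPM for Tg, with a median of 0.42 and 1 of 6 rows, ighd, separated with Tg higher. Erythroid markers summed to 18129, 23251 and 32985 CPM in WT pools 1 to 3 and 12793, 24279 and 32099 CPM in Tg pools 1 to 3. Their median was 0.00, with 0 of 9 rows separated. The erythroid sum thus rose with the pool number in both genotypes, and was lowest in Tg pool 1 and highest in WT pool 3. T and NK cell markers summed to 73.3 to 132 CPM in WT and 107 to 128 CPM in Tg, with a median of 0.11. Of these 6 rows, 2 (cd8a and lck) were separated with Tg higher. Thrombocyte markers summed to 168 to 253 CPM in WT and 215 to 290 CPM in Tg, with a median of 0.17. Of these 6 rows, 2 (itga2b and nfe2) were separated with Tg higher. Among all genes tested, 14% were separated with Tg higher and 14.1% with Tg lower. None of the marker rows was at 0 in all 6 libraries. The part of these cell types in the proteasome values was not tested.

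In the core, the alpha ring had a lower median than the beta ring, a difference that was not tested. Of the 10 alpha ring rows, 9 were above 0, with a median log2 fold change of 0.15 and a range from −0.07 to 0.33. Groups were separated with Tg higher for 4 (40.0%): psma3, psma5 and both rows named psma6. The same held for 14% of all genes and 23.2% of those in the level range of the core and cap. With library size alone only the psma6 row ENSDARG00000013966 stayed separated. The row of psma6 with the ID ENSDARG00000013966 stood at 33.0, 31.9 and 34.7 CPM in WT pools 1 to 3 and at 44.8, 38.2 and 41.9 CPM in Tg pools 1 to 3. Its groups did not overlap, and its log2 fold change was 0.33 (SE 0.12, unadjusted p = 0.0312, FDR = 0.208). The second row of psma6, ENSDARG00000019398, stood at 48.2, 44.4 and 42.6 CPM in the WT pools against 60.8, 49.8 and 52.6 CPM in the Tg pools, and so was also higher in all Tg pools, by 0.27 (SE 0.13, FDR = 0.298). The related psma6l differed from both, with 38.4, 42.7 and 39.1 CPM in the WT pools against 39.5, 38.2 and 36.8 CPM in the Tg pools, overlapping groups and a log2 fold change of −0.07 (SE 0.12, FDR = 0.792). These 3 rows are related genes for the same position in the alpha ring, and how the counting shared reads between them is not known.

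The other alpha ring rows overlapped more. The pair psma2 and psma2a stood at 57.6, 68.7 and 55.7 CPM and at 68.3, 58.6 and 68.6 CPM in WT. In Tg they stood at 79.0, 73.5 and 64.4 CPM and at 78.8, 70.4 and 63.7 CPM, with Tg pool 3 within the WT range in both. The log2 fold changes of this pair were 0.25 (SE 0.14, FDR = 0.364) and 0.12 (SE 0.13, FDR = 0.660). psma8, which RefSeq also lists as psma7, stood at 227, 240.1 and 229 CPM in the WT pools against 263, 234 and 240.03 CPM in the Tg pools. Only Tg pool 1 lay outside the WT range for psma8, and its log2 fold change was 0.08 (SE 0.10, FDR = 0.701). psma1 was flat, at 116, 137 and 123 CPM in the WT pools against 125, 130.2 and 134 CPM in the Tg pools, with all Tg pools inside the WT range and a log2 fold change of 0.05 (SE 0.11, FDR = 0.853).

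In the beta ring, 7 of the 9 rows could be tested. All 7 were above 0, with a median log2 fold change of 0.26 and a range from 0.04 to 0.38. Groups were separated with Tg higher for psmb3, psmb6 and psmb7 (42.9%). The same held for 14% of all genes and 23.2% of those in the level range of the core and cap. With library size alone only psmb6 and psmb7 stayed separated. The core genes with the highest fold change were the catalytic subunits psmb7 and psmb6. psmb6, which encodes the caspase-like site, stood at 47.5, 56.6 and 53.9 CPM in the WT pools against 67.2, 65.5 and 72.4 CPM in the Tg pools, or 52.7 ± 4.69 and 68.4 ± 3.59 CPM (SD, n = 3). Its lowest Tg pool was above its highest WT pool, with a log2 fold change of 0.38 (SE 0.12), and edgeR's unadjusted p of 0.0166 became an FDR of 0.163. psmb7, which encodes the trypsin-like site, stood at 43.51, 43.51 and 39.3 CPM in the WT pools against 58.9, 52.9 and 53.1 CPM in the Tg pools. Its groups were also separated, with a log2 fold change of 0.38 (SE 0.12, FDR = 0.149). The chymotrypsin-like psmb5 stood at 108, 95.7 and 76.2 CPM in the WT pools against 119.7, 100.2 and 118 CPM in the Tg pools, and its groups overlapped because Tg pool 2 lay below WT pool 1. The log2 fold change of psmb5 was 0.27 (SE 0.16, FDR = 0.385), and without WT pool 3 it was 0.12.

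The noncatalytic psmb2 showed the smallest difference of the ring, with 75.0, 80.1 and 89.3 CPM in the WT pools against 84.0, 81.2 and 85.6 CPM in the Tg pools. All Tg values of psmb2 lay inside the WT range, and its log2 fold change was 0.04 (SE 0.11, FDR = 0.894), below 0 with library size alone. The thymus-type catalytic subunit, known from mammals as the one of cortical thymic epithelium, was at or near the limit of detection in both of its rows. psmb11 had 0 counts in all 6 libraries, and psmb11b had 4, 0 and 10 counts in WT and 0, 16 and 0 counts in Tg. Both were too low to be tested.

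**Figure D3:**
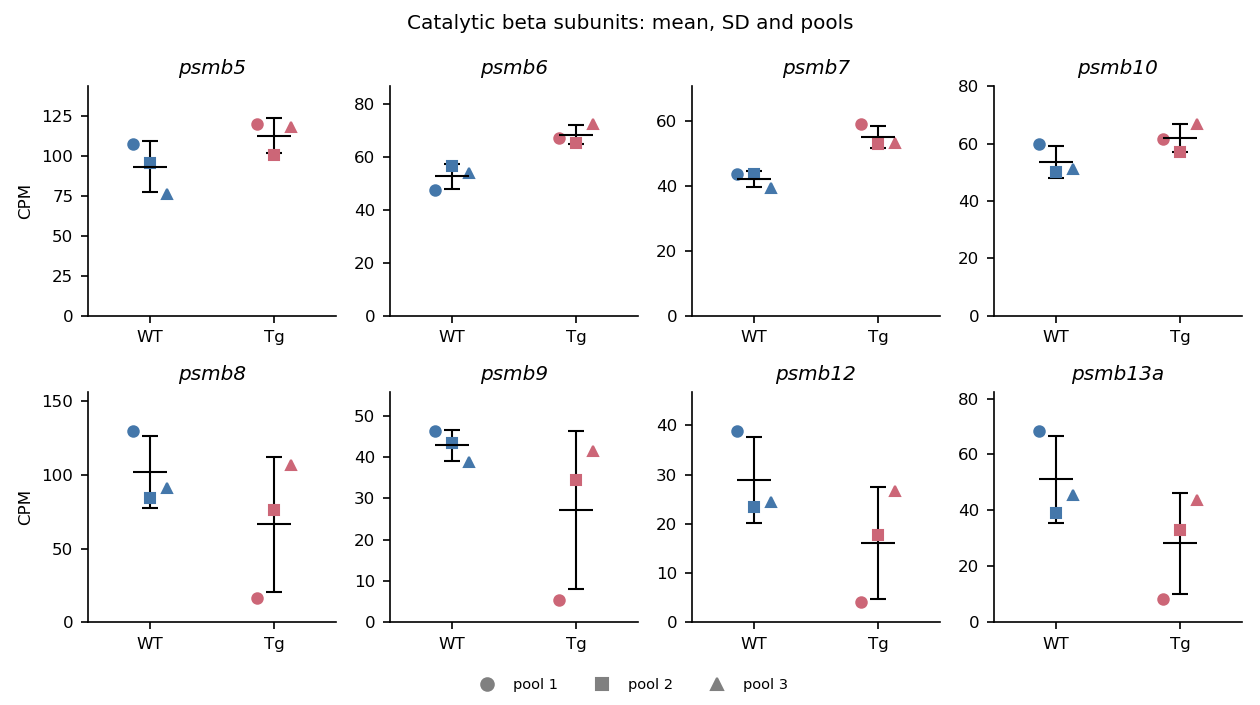
CPM (vertical axis, from 0, scaled per panel) of the constitutive catalytic subunits psmb5, psmb6 and psmb7 and of the immunoproteasome genes psmb10, psmb8, psmb9, psmb12 and psmb13a in WT and Tg pools 1, 2 and 3 (symbols), with the mean and SD as lines. Tg pools lie above WT pools for psmb6 and psmb7, and Tg pool 1 lies far below the other 5 pools for psmb8, psmb9, psmb12 and psmb13a.

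The ATPase ring of the cap held the member with the lowest FDR. Of its 7 rows all were above 0, with a median log2 fold change of 0.24. Groups were separated with Tg higher for 6 (85.7%): psmc1, psmc2, psmc3, psmc4, psmc5 and psmc6. The same held for 14% of all genes and 23.2% of those in the level range of the core and cap. With library size alone only psmc2 and psmc3 stayed separated. psmc3, one of the ATPases that unfold the substrate, stood at 125, 127 and 107 CPM in the WT pools against 176, 161 and 155 CPM in the Tg pools. The means were 119 ± 11.2 and 164 ± 10.9 CPM (SD, n = 3), and the lowest Tg pool was well above the highest WT pool. Its log2 fold change was 0.46 (SE 0.12, 37.7% higher), and edgeR's unadjusted p of 0.00541 became an FDR of 0.112. In DESeq2 psmc3 passed at an adjusted p of 0.0288. With any single pool left out, its log2 fold change stayed between 0.36 and 0.51, with an FDR from 0.154 to 0.278, and without both Tg pool 1 and WT pool 3 it was 0.31.

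The other ATPases differed less. psmc5 had 106, 118 and 108 CPM in the WT pools against 125, 118.1 and 125 CPM in the Tg pools, so that Tg pool 2 exceeded WT pool 2 by under 1 CPM. Its groups were separated by that margin only, and its log2 fold change was 0.15 (SE 0.10, FDR = 0.464). The pair psmc1 and psmc1b split. psmc1 stood at 94.2, 100.1 and 86.5 CPM in the WT pools against 121, 111 and 100.1 CPM in the Tg pools, with a log2 fold change of 0.24 (SE 0.12, FDR = 0.321). psmc1b stood at 55.2, 58.6 and 55.9 CPM in the WT pools against 64.5, 54.4 and 56.8 CPM in the Tg pools, overlapped, and had the lowest log2 fold change of the cap, 0.05 (SE 0.12, FDR = 0.858), which was −0.02 without Tg pool 1. The difference between these rows was not tested.

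Among the 12 non-ATPase rows of the cap, all were above 0, from 0.16 to 0.43, with a median log2 fold change of 0.22. Groups were separated with Tg higher for 50.0% of them: psmd6, psmd7, psmd8, psmd12, psmd13 and the psmd11 row ENSDARG00000060150. The same held for 14% of all genes and 23.2% of those in the level range of the core and cap. With library size alone the groups of these separated rows overlapped. That row of psmd11, a lid subunit, stood at 56.7, 56.2 and 65.5 CPM in the WT pools against 94.4, 77.0 and 69.7 CPM in the Tg pools, with non-overlapping groups and a log2 fold change of 0.43 (SE 0.15, FDR = 0.182). The other row of psmd11, ENSDARG00000005134, stood at 77.8, 71.9 and 61.7 CPM in the WT pools against 82.6, 70.4 and 83.9 CPM in the Tg pools, and its Tg pool 2 fell inside the WT range (log2 fold change 0.16, SE 0.14, FDR = 0.559). psmd8, also of the lid, was at 95.8, 82.5 and 74.6 CPM in the WT pools against 115, 112 and 104 CPM in the Tg pools. Its groups did not overlap, and its log2 fold change was 0.39 (SE 0.13, FDR = 0.170).

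The deubiquitinase psmd14 lay at the median of the cap, and the rows of the ubiquitin receptor psmd4 lay below it. psmd14, which cuts ubiquitin chains from the substrate, stood at 65.7, 59.1 and 56.9 CPM in the WT pools against 76.9, 63.1 and 72.8 CPM in the Tg pools. Its Tg pool 2 was below WT pool 1, and the log2 fold change was 0.23 (SE 0.13, FDR = 0.371). psmd4 stood at 47.6, 49.6 and 45.9 CPM in the WT pools against 48.7, 60.7 and 51.6 CPM in the Tg pools, and was the 1 cap gene with its highest value in Tg pool 2. Its paralogue psmd4b stood at 46.7, 38.8 and 41.9 CPM in the WT pools against 52.4, 49.6 and 44.6 CPM in the Tg pools. Both overlapped between the groups, with log2 fold changes of 0.17 (SE 0.13, FDR = 0.514) and 0.20 (SE 0.13, FDR = 0.443). The base subunit psmd2 was not analysed here.

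The 7 assembly and inhibitor genes did not move as a block. Their median log2 fold change was 0.21, but 4 were above 0 and 3 below it, and 0 passed an FDR of 0.05 by edgeR or DESeq2. At an unadjusted p under 0.05 there were 2 in each direction (28.6% of the 7), beside 9.07% of all genes higher and 10.8% lower. In each direction 2 had separated groups, beside 14% of all genes with Tg higher and 14.1% with Tg lower. The pair with lower levels in Tg was psmd9 and psmf1. psmd9, a chaperone of the cap's ATPase ring, stood at 15.9, 17.1 and 16.8 CPM in the WT pools against 11.9, 12.7 and 9.60 CPM in the Tg pools. Every Tg pool of psmd9 was below every WT pool, and the log2 fold change was −0.54 (SE 0.18, unadjusted p = 0.0177, FDR = 0.166). psmf1, known as PI31 and first described as an inhibitor of the 20S core, stood at 17.7, 22.8 and 21.6 CPM in the WT pools against 13.5, 14.8 and 15.5 CPM in the Tg pools, again without overlap, with a log2 fold change of −0.50 (SE 0.17, unadjusted p = 0.0189, FDR = 0.170). Leaving out any single pool kept psmd9 between −0.63 and −0.43 and psmf1 between −0.60 and −0.43, and with library size alone they stood at −0.61 and −0.58.

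psmd5, another chaperone of the ATPase ring, had 20.2, 23.3 and 19.4 CPM in the WT pools against 19.5, 14.1 and 15.9 CPM in the Tg pools. Its Tg pool 1 lay within the WT range, and the log2 fold change was −0.34 (SE 0.18, FDR = 0.339). The third such chaperone, psmd10 (gankyrin), went the other way, at 20.6, 25.3 and 18.3 CPM in the WT pools against 35.5, 29.3 and 25.2 CPM in the Tg pools. The groups of psmd10 overlapped by the 0.1 CPM between WT pool 2 and Tg pool 3, and its log2 fold change was 0.49 (SE 0.19, unadjusted p = 0.0359, FDR = 0.222). The chaperones of the cap's ATPase ring thus had values on both sides of 0, while the ATPase rows were all above 0, except psmc1b with library size alone or without Tg pool 1.

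The chaperones of the 20S core were above 0. psmg1, which pairs with psmg2 to build the alpha ring, stood at 30.4, 37.7 and 30.0 CPM in the WT pools against 42.5, 41.1 and 50.8 CPM in the Tg pools. Its groups were separated, with a log2 fold change of 0.45 (SE 0.15, unadjusted p = 0.0205, FDR = 0.175). psmg2, named here after its values were seen, stood at 28.1, 30.42 and 28.2 CPM in the WT pools against 30.44, 31.9 and 37.8 CPM in the Tg pools, separated by a margin of 0.02 CPM, with a log2 fold change of 0.21 (SE 0.14, FDR = 0.452). psmg3, also a core chaperone, stood at 22.8, 22.5 and 24.9 CPM in the WT pools against 22.3, 28.9 and 34.7 CPM in the Tg pools, where Tg pool 1 was the lowest of all 6 libraries (log2 fold change 0.29, SE 0.18, FDR = 0.433). With library size alone, 0 of these 7 genes had separated groups with Tg higher. The row psmc3ip, set apart above, stood at 6.60, 4.89 and 5.18 CPM in the WT pools against 10.5, 11.1 and 9.0 CPM in the Tg pools. It had the largest log2 fold change of the 44 tested rows that match the name rule, 0.87 (SE 0.23), with an FDR of 0.118 in edgeR and an adjusted p of 0.0278 in DESeq2.

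**Figure D4:**
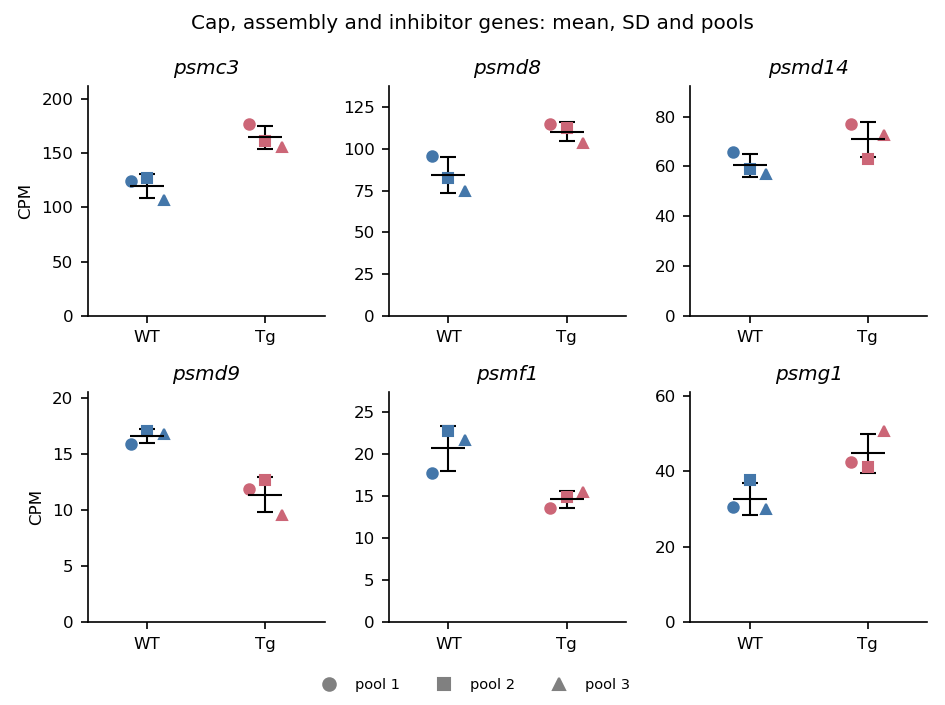
CPM (vertical axis, from 0, scaled per panel) of the cap genes psmc3, psmd8 and psmd14, the cap chaperone psmd9, the inhibitor psmf1 and the core chaperone psmg1 in WT and Tg pools 1, 2 and 3 (symbols), with the mean and SD as lines. Groups are separated with Tg higher for psmc3, psmd8 and psmg1 and with Tg lower for psmd9 and psmf1, while Tg pool 2 of psmd14 falls below WT pool 1.

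**Figure D5:**
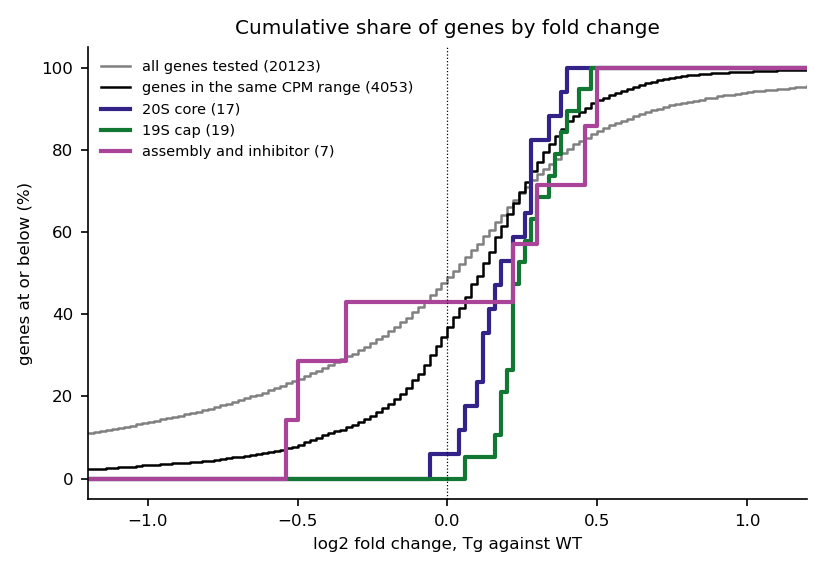
Percent of genes (vertical axis) at or below each log2 fold change of Tg against WT (horizontal axis), for all 20123 genes tested, the 4053 genes in the CPM range of the core and cap, and the core (17), cap (19) and assembly and inhibitor genes (7). The medians are 0.012 for all genes, 0.105 for genes of the same level, 0.17 for the core and 0.23 for the cap, and the core and cap curves are steeper than those of the other genes.

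The immunoproteasome genes, which replace the constitutive catalytic subunits in immune cells or after interferon, had another pattern over the pools. psmb8 stood at 130.2, 84.7 and 90.9 CPM in the WT pools against 16.5, 75.9 and 107 CPM in the Tg pools, and psmb9 at 46.4, 43.3 and 38.7 CPM in the WT pools against 5.32, 34.6 and 41.4 CPM in the Tg pools. The fish genes psmb12 and psmb13a stood at 4.05 and 8.21 CPM in Tg pool 1, against 17.7 to 38.9 CPM and 32.8 to 68.5 CPM in the other 5 pools. For these 4 genes Tg pool 1, where most constitutive genes were highest, was by far the lowest, and Tg pool 2 also lay below all WT pools, while Tg pool 3 lay within the WT range. psmb10 did not share this, at 60.04, 49.98 and 51.1 CPM in the WT pools against 61.8, 57.1 and 66.8 CPM in the Tg pools. In the RefSeq annotation of a later assembly (GRCz12tu), psmb13a, psmb8a, psmb12 and psmb9a follow each other on chromosome 19, while psmb10 lies on chromosome 4. The list named 8 immunoproteasome genes, but only 5 rows were found, so forms without a row of their own could not be followed. The cause of the low values in Tg pool 1 was not tested. The count of psmb8 per count of psmb5 was 1.21, 0.886 and 1.19 in WT and 0.138, 0.757 and 0.906 in Tg, and that of psmb10 per psmb7 was 1.38, 1.15 and 1.3 in WT and 1.05, 1.08 and 1.26 in Tg. None of the 5 immunoproteasome genes passed the test, with FDR from 0.435 to 0.612, and without Tg pool 1 the log2 fold changes went from −0.62 to −0.16 for psmb8, from −0.66 to −0.17 for psmb9, from −0.84 to −0.38 for psmb12 and from −0.86 to −0.42 for psmb13a.

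Other genes of the ubiquitin-proteasome system were taken from a fixed list, of which 67 rows were tested. By edgeR 0 passed an FDR of 0.05, 6 were higher and 0 lower at an unadjusted p under 0.05, 45 were above 0, the median log2 fold change was 0.12, and groups were separated for 14 with Tg higher and 1 with Tg lower. These shares, 8.96% at the unadjusted p and 20.9% separated with Tg higher, stand beside 9.07% and 14% of all genes and beside 16.7% and 23.2% of the genes in the level range of the core and cap. The activator subunit psme3, which forms the nuclear cap of the core, was among the 14, at 82.2, 67.9 and 63.0 CPM in the WT pools against 98.8, 89.9 and 95.7 CPM in the Tg pools (log2 fold change 0.42, SE 0.13, FDR = 0.162). psme1 and psme2, the subunits of the interferon-induced activator, had log2 fold changes of 0.11 and −0.06, and the rows of psme4, the large activator, had 0.16 and 0.12. The cap subunits without a psm name stood at 0.21 for sem1, with separated groups, and 0.02 for adrm1, a ubiquitin receptor, whose groups overlapped and whose sign changed between scalings.

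uba1, the main enzyme that activates ubiquitin, stood at 514, 489 and 425 CPM in the WT pools against 642, 568 and 594 CPM in the Tg pools (log2 fold change 0.34, SE 0.12, FDR = 0.187), without overlap. The core maturation factor pomp was at 69.6, 78.7 and 72.9 CPM in the WT pools against 82.8, 77.5 and 81.8 CPM in the Tg pools (0.13 on the log2 scale, SE 0.11, FDR = 0.556), where Tg pool 2 lay below WT pool 2. Of the factors that drive proteasome genes in mammals, nfe2l1 and nfe2l1b had log2 fold changes of −0.08 (SE 0.21, FDR = 0.871) and 0.21 (SE 0.12, FDR = 0.365), with separated groups only for nfe2l1b. nfe2l2, which drives them under oxidative stress, stood at 203, 254 and 221 CPM in the WT pools against 224, 317 and 234 CPM in the Tg pools (0.19 on the log2 scale, SE 0.17, FDR = 0.572), and its groups overlapped.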

How the data were processed

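RNA of WKM cells was sequenced in 3 WT and 3 Tg pools, and the labels of both genotypes number the pools 1 to 3. Poly(A) RNA was purified, and the authors used Cutadapt 1.9 for trimming, HISAT2 2.0.4 for alignment (genome GRCz11) and StringTie 1.3.4d for assembly. The table deposited by the authors gives, for every gene, whole-number counts in each library that were not normalized. The step that made them, and whether it used the strand that the libraries mark, are not given in the sources used here. Reads of paralogues may therefore be shared out in unknown ways. Total counts ran from 50767535 to 64888212.

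All genes were fitted together in edgeR 4.0.16 (R 4.3.3): filterByExpr by group left 20123 genes, libraries were scaled by TMM, and glmQLFit and glmQLFTest in this version's default form compared Tg with WT, with p-values adjusted by Benjamini-Hochberg over the whole table and a threshold of FDR 0.05. The common dispersion was 0.274. Standard errors (SE) of the log2 fold change were derived from the test, as its absolute value divided by the square root of the F statistic. CPM are TMM-scaled. Groups count as separated where all 3 pools of one genotype lie beyond all 3 of the other. P-values set the difference between genotypes against the spread between pools, and not against that between single fish. Alternatives were other scalings, filters, tools (DESeq2 1.42.0, limma-voom with limma 3.58.1), a replicate block and leaving out pools. The code of the test was run on simulated counts.

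Members, lists and tests were chosen with earlier results of these data known. Genes with values in the text were the 3 highest and 3 lowest fold changes of each group, the catalytic subunits, psmd14, psmd4, paralogue pairs, psma8, psmb11, the most and least abundant members, and fixed genes of the pathway list. Symbols came from a name table, and RefSeq (GRCz12tu) gave synonyms and gene order only.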

Additional observations from a re-analysis of the deposited data

How the results depend on the processing

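Of the 44 named genes tested, 0 passed an FDR of 0.05 in the reported fit and 1, psmc3, passed under an alternative: DESeq2 gave it 0.44 (adjusted p = 0.0288), the 1 cap gene that DESeq2 called. These named genes leave out the cell type markers and psmc3ip, which DESeq2 also called (adjusted p = 0.0278). Named genes changed sign under at least 1 setting in 5 cases. adrm1 was −0.00 with RLE size factors and in DESeq2, −0.04 with library size alone, −0.05 without WT pool 3, −0.14 without Tg pool 1 (up to 0.15 with another pool left out) and −0.21 without both of these pools. psma1 was −0.03 with library size alone and −0.01 without WT pool 1, psmb2 was −0.03 and −0.02 under the same settings (up to 0.09 with another pool left out), psmc1b was −0.02 with library size alone, −0.02 without Tg pool 1 and −0.06 without Tg pool 1 and WT pool 3, and psma8 was −0.00 without those pools. The cause was not tested.

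With library size alone, which lowered the median of all genes by 0.073 (log2), the core median was 0.10. At an unadjusted p under 0.05, 1 gene each of the core, the cap and the assembly group was higher, beside 5.93% of all genes. Separated groups with Tg higher were left for 3, 2 and 0 genes. Without WT pool 3 and Tg pool 1 (added after the values were seen) the medians were 0.08 in the core and 0.11 in the cap. In that comparison 0 genes of each group were higher at an unadjusted p under 0.05, beside 6.84% of all genes. With single pools left out, the medians ran from 0.12 to 0.22 in the core, 0.16 to 0.30 in the cap and 0.11 to 0.27 in the assembly group. Genes higher at an unadjusted p under 0.05 ran from 1 to 4, 2 to 7 and 0 to 2, beside 5.18% to 8.44% of all genes. The core had 1 such gene without WT pool 3 or without Tg pool 3, beside 6.19% and 5.18% of all genes. In these fits 0 members were past an FDR of 0.05. Separated genes ran from 7 to 11, 12 to 15 and 2 to 3. Groups with a pool fewer separate more easily, as 17.3% to 21.2% of all genes did, beside 14% with all pools. These separated counts therefore do not test how far the result rests on single pools. Calls over all genes, 45 higher and 75 lower, were 0 and 0 without Tg pool 2 or 3, 0 and 1 without WT pool 3, 2 and 2 without WT pool 2, 25 and 25 with limma-voom, 93 and 162 with edgeR's newer quasi-likelihood form (added after the data were seen) and 651 and 1357 with DESeq2. The older quasi-likelihood form is this version's default and was not run again.

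Over all genes tested, the pools numbered 1 and 2 did not deviate together between the genotypes (correlations over genes of −0.0869 and −0.135). The pools numbered 3 did so weakly, at 0.129, and each was the best match of the other. The highest correlation, 0.245, was between WT pool 2 and Tg pool 1. Not every pool correlated best with its own number, so the numbers were not taken as pairs. The share of haemoglobin counts did rise with the number in both genotypes. It was 2.58%, 3.24% and 4.58% in WT pools 1 to 3 and 2.31%, 3.37% and 4.52% in Tg pools 1 to 3. The cause of this shared order was not tested. With the replicate block, 0 members and, over all genes, 0 higher and 1 lower passed an FDR of 0.05. At an unadjusted p under 0.05, 2 core genes in place of 4 were higher, beside 7.65% of all genes. psmb11 and psmb11b had too few counts to be tested, and with 3 pools per genotype the standard errors of the core and cap genes were 0.10 to 0.17 on the log2 scale.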
